A study of Mus musculus with 4 samples.

Results

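The interleukin-1 (IL-1) and interleukin-18 (IL-18) family was examined through 10 listed mouse genes: the ligands Il1a, Il1b and Il18, the receptor antagonist Il1rn, and the receptor chains Il1r1, Il1r2, Il1rap, Il1rl1, Il18r1 and Il18rap. A gene was read from a probe set annotated with that symbol alone. This gave 8 measured members among 19938 genes, each with 1 probe set, and Il1r1 and Il1rl1 were not analysed here. The cells were dendritic cells (DCs) grown from C57BL/6 bone marrow in Flt3 ligand at 200 ng/ml for 8 days, and each of 4 groups was measured on 1 Affymetrix array. The groups were miR-142-/- (ko) and miR-142+/+ (wt) CD8-equivalent DCs, and ko and wt CD4-equivalent DCs. CD8-equivalent DCs were sorted as CD11c+ CD172- CD24+ cells with low CD11b, and CD4-equivalent DCs as CD11c+ CD172+ CD11b+ cells with low CD24, both without B220. Both stand in culture for the CD8+ and CD4+ conventional DCs of the spleen. The labels give no number, age or sex of mice and do not say which part of the miR-142 locus was removed.

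IL-1α and IL-1β signal through the receptor chain IL1R1 together with the accessory chain IL1RAP. The antagonist IL1RN occupies IL1R1 without signalling, and IL1R2 is a decoy that binds the ligand but lacks the signalling domain. IL-18 binds IL18R1 and then recruits IL18RAP, and all these signalling receptors use MyD88 and IRAK kinases to reach NF-kB. IL-1β and IL-18 are made as inactive precursors that caspase-1 cleaves, and myeloid cells such as DCs are a main source of both.

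Values are RMA log2 expression, so a difference of 1 is 2-fold. A level was taken as measured above background when it reached a floor of 5.68, set at the median over probe sets with 1 gene, and a gene was compared between a pair of arrays when the higher value reached it. With 1 array a group, a difference between a pair of arrays cannot be set against replicate spread and carries no p-value. Effects shared by both subsets or by both genotypes were tested with limma over 10239 genes, with Benjamini-Hochberg adjustment.

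miR-142, which was deleted, gives rise to a pair of mature strands whose RefSeq sequences (GRCm38.p6, plus strand) are shown to identify the manipulated molecule. The 5p arm lies at chr11:87756867-87756887 and the 3p arm at chr11:87756903-87756925, and capitals mark the seed, bases 2 to 8, which sets the choice of targets.
mmu-miR-142a-5p: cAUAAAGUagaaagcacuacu
mmu-miR-142a-3p: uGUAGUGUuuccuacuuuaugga

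The members that differed most were Il1b, Il18 and Il18rap, and the 250 bases upstream of their RefSeq starts are shown as the DNA next to which these transcripts begin. They lie at chr2:129371140-129371389 (minus strand) for Il1b, chr9:50554450-50554699 (plus strand) for Il18 and chr1:40515112-40515361 (plus strand) for Il18rap. Capitals mark matches to the motifs searched.
Il1b: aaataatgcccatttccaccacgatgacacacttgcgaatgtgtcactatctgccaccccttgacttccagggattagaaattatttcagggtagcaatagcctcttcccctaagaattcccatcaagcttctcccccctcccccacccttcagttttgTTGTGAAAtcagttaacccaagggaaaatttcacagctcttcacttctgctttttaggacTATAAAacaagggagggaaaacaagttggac
Il18: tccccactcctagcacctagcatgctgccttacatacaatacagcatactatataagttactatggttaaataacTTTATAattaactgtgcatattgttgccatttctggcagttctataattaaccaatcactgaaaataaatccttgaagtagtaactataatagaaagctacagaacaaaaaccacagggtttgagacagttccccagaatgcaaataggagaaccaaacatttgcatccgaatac
Il18rap: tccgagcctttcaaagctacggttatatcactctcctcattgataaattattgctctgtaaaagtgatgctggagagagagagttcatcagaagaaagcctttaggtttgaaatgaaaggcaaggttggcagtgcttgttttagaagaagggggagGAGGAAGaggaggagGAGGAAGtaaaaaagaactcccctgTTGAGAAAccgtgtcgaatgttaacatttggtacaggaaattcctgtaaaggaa

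Both strands were searched for the TATA box (TATAAA), AP-1 (TGANTCA), C/EBP (TTNNGNAA), PU.1 (GAGGAAG) and GAS (TTCNNNGAA) motifs and for the NF-kB and ISRE consensus sequences. The Il1b window held a TATA box 31 to 26 bases before the start and a C/EBP match 91 to 84 bases before it. The Il18 window held a TATA box match only, on the opposite strand and 175 to 170 bases before the start. The Il18rap window held PU.1 matches at 94 to 88 and at 79 to 73 bases before the start, and a C/EBP match at 54 to 47. Of 32817 RefSeq windows of this length, 12.4% held the TATA box, 36.8% the C/EBP motif and 10.6% the PU.1 motif. AP-1 was found in 6.75%, ISRE in 2.97%, GAS in 7.02% and NF-kB in 3.90% of windows, and in none of the 3 shown. A match is a run of letters and does not show binding.

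The labels were checked before the family was read. Mir142 read 4.79 in ko and 9.87 in wt CD8-equivalent DCs, and 4.92 in ko and 10.37 in wt CD4-equivalent DCs, so both ko arrays lay below the floor. Sirpa, which encodes CD172a, read 9.67 in ko and 9.69 in wt CD8-equivalent DCs, and 11.92 in ko and 12.11 in wt CD4-equivalent DCs. Cd24a, the gene of the CD24 used for sorting, read 12.72 in ko and 12.76 in wt CD8-equivalent DCs, and 11.98 in ko and 10.98 in wt CD4-equivalent DCs, so its subset gap was narrower in ko (0.73) than in wt (1.78). The CD8-equivalent marker gene Clec9a, a receptor for dead cells, read 11.15 and 10.89 in ko and wt CD8-equivalent DCs, but also 10.85 in ko CD4-equivalent DCs, against 7.78 in wt CD4-equivalent DCs. In CD4-equivalent DCs, ko exceeded wt by 2-fold or more for 9 of 12 neutrophil markers compared, where 1.39% of all genes did. The mean log2 level over 14 markers was 7.37 in ko and 5.66 in wt. At or above the floor were 12 in ko and 4 in wt. The rest of the 12 entered only through the higher ko array and could only lie above wt. Of the 4, Lcn2 (3.80) and S100a8 (3.08) were higher in ko, and Mmp8 (-0.69) and Csf3r (-0.74) lower. On the same pair of arrays 5 of 11 CD8-equivalent DC markers and 3 of 9 plasmacytoid DC markers were higher in ko by at least 2-fold and 0 lower. Of 10 CD4-equivalent DC markers 1 was higher and 3 were lower by that margin, where 0.952% of all genes were lower. In CD8-equivalent DCs 1 neutrophil marker was compared, Mpo, at 7.55 in ko and 4.79 in wt. It entered only through ko and could only count as higher. The part of such shifts in the cells sorted in any difference below was not tested.

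Il1b, the gene of IL-1β, was well above the floor on 3 arrays and below it in ko CD8-equivalent DCs. It read 5.19 in ko and 8.35 in wt CD8-equivalent DCs, and 7.98 in ko and 8.54 in wt CD4-equivalent DCs. The ko CD8-equivalent array stood alone at the low end, and the other 3 arrays lay close together. The difference, ko minus wt, was -3.16 in CD8-equivalent DCs, an 8.97-fold lower level in ko, and -0.55 in CD4-equivalent DCs. As the ko CD8-equivalent value lies in the background range, the size of that difference is blurred. In limma's test of a genotype effect common to both subsets, Il1b had a mean difference of -1.86 ± 0.60 (SE) with an adjusted p of 0.25. The gap between its genotype differences, CD8-equivalent minus CD4-equivalent, was -2.61 and has no test.

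Some monocyte and macrophage markers, but not all, were also lower on the ko CD8-equivalent array. Of 11 such markers compared there, 6 fell short of wt by 2-fold or more and 0 exceeded it to that degree, against 1.00% and 1.14% of all genes, and their median difference was -1.26. The 6 were the macrophage surface receptor gene Adgre1 (5.08 in ko and 8.09 in wt), the complement genes C1qb (5.56 and 7.93) and C1qc (5.58 and 6.84), the lipoprotein gene Apoe (-2.16), the lysozyme gene Lyz2 (-1.44) and Ms4a7 (-1.31). The mean log2 level over 14 markers was 7.20 in ko and 8.10 in wt CD8-equivalent DCs, and 9.32 in ko and 9.11 in wt CD4-equivalent DCs. The number of these markers at or above the floor was 7 in ko and 11 in wt CD8-equivalent DCs. Of the 6, Adgre1, C1qb, C1qc and Ms4a7 (5.54) lay below it in ko. These entered only through the higher wt array and could only count as lower, and the median of -1.26 includes them. Apoe and Lyz2 reached the floor on both arrays. The other markers compared were under 2-fold there, namely Cd68 (-0.59), Ccr2 (-0.07), Fcgr1 (-0.05), Cd14 (0.002) and Csf1r (0.38). Among the markers not compared, the complement gene C1qa and the clearance receptor gene Mertk lay below the floor on all 4 arrays. Fewer cells of a type and less Il1b RNA per cell cannot be told apart in sorted bulk RNA, and the part of these markers in the Il1b difference was not tested.

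The profile of Il1b over the 4 arrays, centred on its own mean, was compared with those of 10238 other genes that reached the floor. The nearest was Apoe, the lipid carrier apolipoprotein E, at a Euclidean distance of 0.85 log2 units. Tlr13, a receptor for bacterial ribosomal RNA, came next at 0.91, with 7.17 in ko and 9.34 in wt CD8-equivalent DCs and 9.73 in ko and 10.72 in wt CD4-equivalent DCs. The third was Ifitm1, an antiviral membrane protein, at 1.04. All 3 had their lowest value in ko CD8-equivalent DCs, the array where Il1b was lowest. The likeness rests on 4 values a gene from arrays that every gene shares, and is a description only.

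**Figure D1:**
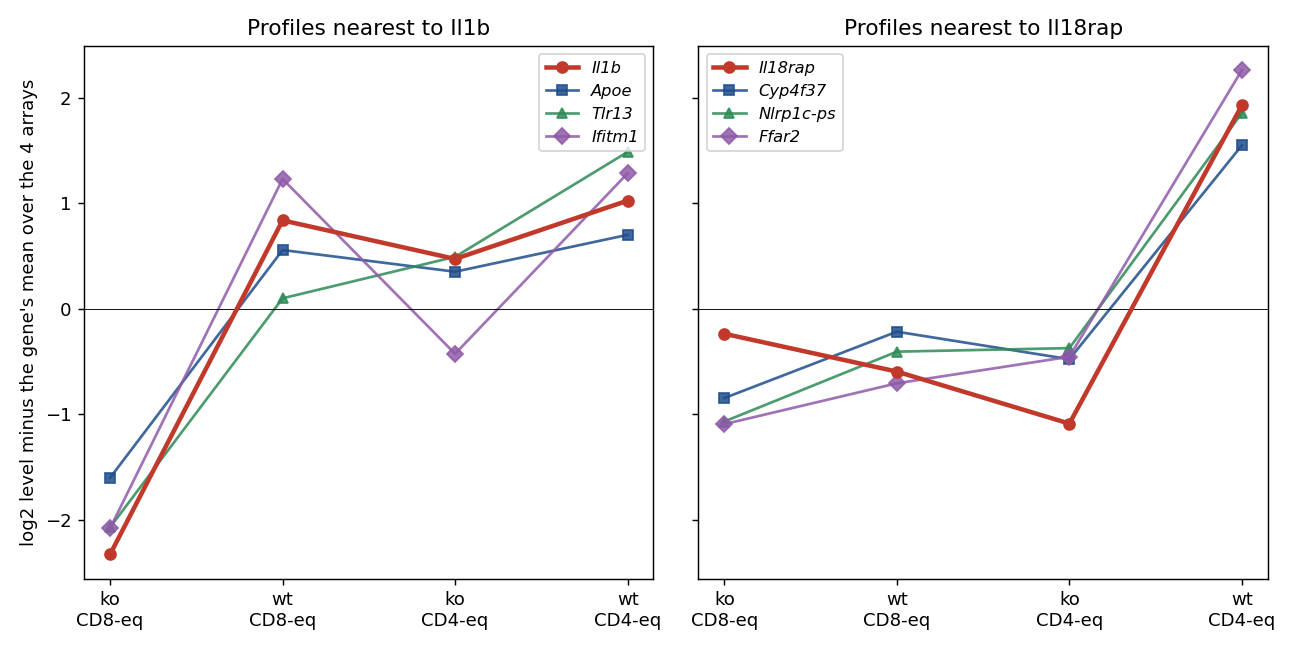
Log2 levels minus each gene's own mean over the 4 arrays, for Il1b (left) and Il18rap (right) with the 3 genes whose profiles lie nearest; lines join the points of a gene. The Il1b group has its lowest point in ko CD8-equivalent DCs, and the Il18rap group its highest point in wt CD4-equivalent DCs.

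Il18, the gene of the IL-18 precursor, was above the floor in wt CD4-equivalent DCs alone. It read 5.34 in ko and 5.41 in wt CD8-equivalent DCs, and 5.40 in ko and 6.80 in wt CD4-equivalent DCs. The other 3 readings were nearly equal, and the wt CD4-equivalent array stood apart from them. In CD4-equivalent DCs Il18 was lower in ko than in wt by a measured difference of -1.39 (2.63-fold). The ko value lies in the background range, so the size is blurred, and Il18 could be compared only through the array where it is high. In CD8-equivalent DCs both genotypes were below the floor and were not compared. With limma the genotype difference common to both subsets was -0.73 ± 0.32 (SE, adjusted p = 0.36).

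Il1a, the gene of IL-1α, lay below the floor on every array, at 4.44 in ko and 4.50 in wt CD8-equivalent DCs and at 4.57 in ko and 4.61 in wt CD4-equivalent DCs. No difference in Il1a was detectable at this signal. Il1rn, the gene of the receptor antagonist, read 5.90 in ko and 6.31 in wt CD8-equivalent DCs, and 6.33 in ko and 6.41 in wt CD4-equivalent DCs. All 4 readings were close to the floor, and the ko CD8-equivalent array was again the lowest. The ko minus wt differences of Il1rn were -0.41 and -0.08, under 2-fold in both subsets (limma adjusted p = 0.46).

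**Figure D2:**
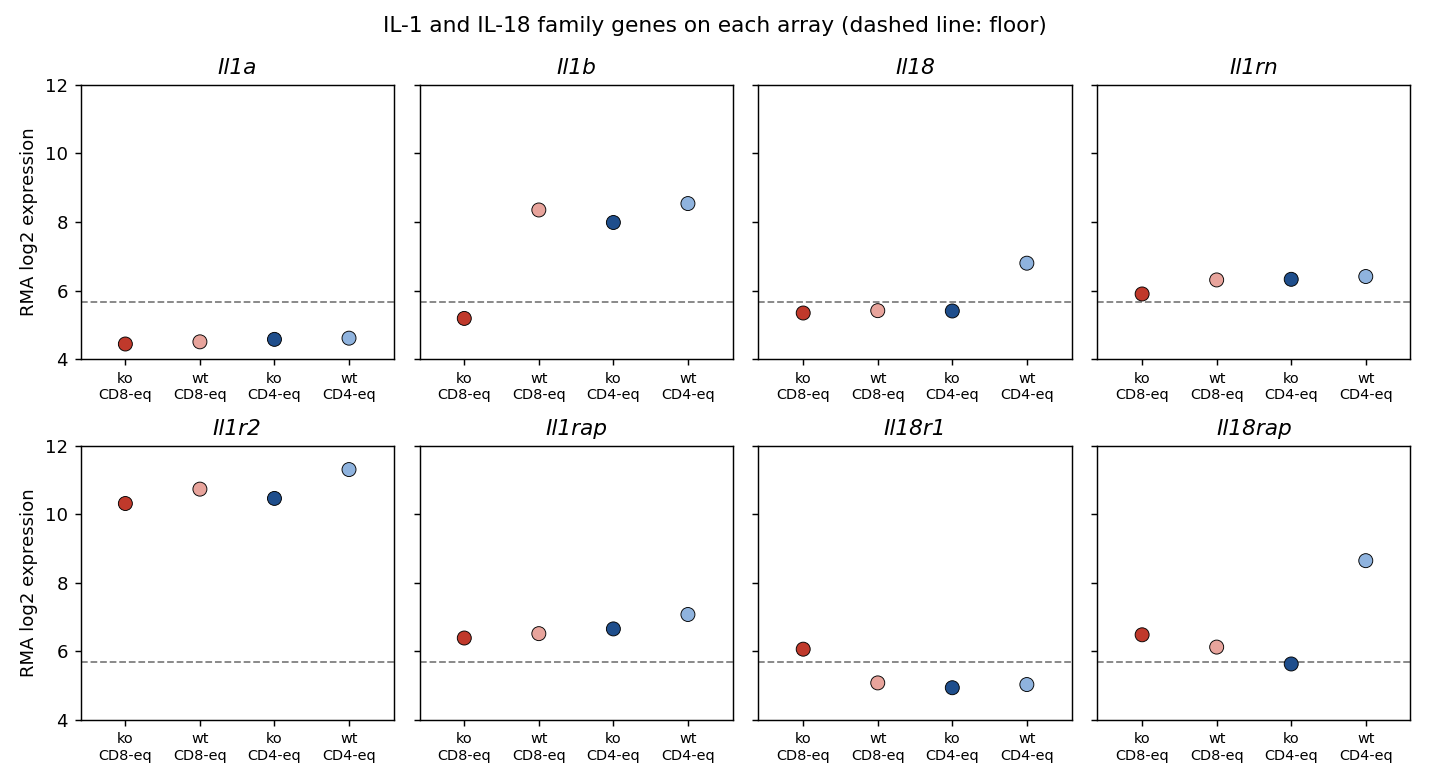
RMA log2 expression (vertical axis) of the 8 measured family genes on each of the 4 arrays (horizontal axis), 1 point an array, with the floor of 5.68 as a dashed line. Il1b falls below the floor in ko CD8-equivalent DCs (5.19), Il18 (6.80) and Il18rap (8.64) stand out in wt CD4-equivalent DCs, and Il18r1 reaches the floor only in ko CD8-equivalent DCs (6.06).

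Among the receptor chains, Il18rap, the signalling partner of the IL-18 receptor, had the widest range. It read 6.48 in ko and 6.12 in wt CD8-equivalent DCs, and 5.63 in ko and 8.64 in wt CD4-equivalent DCs. The wt CD4-equivalent array was far above the rest, and the ko CD4-equivalent value lay just under the floor. The difference, ko minus wt, was -3.02 in CD4-equivalent DCs, an 8.08-fold lower level in ko, but 0.36 in CD8-equivalent DCs. Because the directions differ, the mean over the subsets, -1.33 ± 0.76 (SE), describes neither of them, and it did not pass limma's test (adjusted p = 0.48). The gap between the genotype differences, CD8-equivalent minus CD4-equivalent, was 3.37, the largest in size among the measured members, and has no test.

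Genes with profiles most like Il18rap were Cyp4f37, a cytochrome P450 gene, at a distance of 1.02 log2 units, the pseudogene Nlrp1c-ps at 1.12, and Ffar2, a receptor for short-chain fatty acids, at 1.12. Each had its highest value in wt CD4-equivalent DCs. Ffar2 read 5.07 in ko and 5.46 in wt CD8-equivalent DCs, and 5.71 in ko and 8.43 in wt CD4-equivalent DCs. In these 3 genes the lowest value was in ko CD8-equivalent DCs, whereas the lowest value of Il18rap was in ko CD4-equivalent DCs. These lowest values all lay below the floor (5.20 for Cyp4f37, 5.56 for Nlrp1c-ps, 5.07 for Ffar2 and 5.63 for Il18rap). The order of the low arrays therefore cannot be read closely.

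Il18r1, the chain that binds IL-18, reached the floor on 1 array. It read 6.06 in ko and 5.08 in wt CD8-equivalent DCs, and 4.94 in ko and 5.03 in wt CD4-equivalent DCs. The ko CD8-equivalent array was the high one and the other 3 were below the floor. The measured ko minus wt difference in CD8-equivalent DCs was 0.98, but as wt lies below the floor its size, and its place against the 2-fold line, cannot be read closely. Limma's common genotype difference was 0.45 ± 0.27 (SE, adjusted p = 0.50). The chains of the IL-18 receptor thus peaked on different arrays, Il18r1 in ko CD8-equivalent and Il18rap in wt CD4-equivalent DCs, and both chains were at or above the floor together only in ko CD8-equivalent DCs.

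T and NK cells also carry the IL-18 receptor, so their markers were read beside it. Of 14 such markers measured, 4 were at or above the floor in ko and 3 in wt CD8-equivalent DCs, and 2 in each genotype of CD4-equivalent DCs. The mean log2 level was 5.60 in ko and 5.42 in wt CD8-equivalent DCs, and 5.34 in ko and 5.32 in wt CD4-equivalent DCs. The T-cell receptor complex genes Cd3e, Cd3d and Cd3g and the NK receptor gene Ncr1 were below the floor on all 4 arrays. Klrd1, which encodes the NK receptor chain CD94, read 11.18 in ko and 11.26 in wt CD8-equivalent DCs, and 11.77 in ko and 12.33 in wt CD4-equivalent DCs, and so was highest on the array where Il18rap was. Nkg7, a granule gene of cytotoxic cells, read 8.09 in ko and 7.28 in wt CD8-equivalent DCs, and 5.12 in ko and 4.95 in wt CD4-equivalent DCs. Cd2, an adhesion molecule of T and NK cells, read 6.61 in ko and 4.97 in wt CD8-equivalent DCs. In CD4-equivalent DCs it read 5.16 in ko and 4.79 in wt. Cd2 thus reached the floor only in ko CD8-equivalent DCs, the array where Il18r1 did. Nkg7 was also highest there, while Klrd1 and Tbx21 were not. Tbx21 was above the floor on all 4 arrays. It read 5.96 in ko and 6.18 in wt CD8-equivalent DCs, and 6.18 in ko and 6.03 in wt CD4-equivalent DCs. Neither Nkg7 nor Tbx21 was highest on the wt CD4-equivalent array. The part of these genes in the Il18r1 and Il18rap differences was not tested.

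Il1r2, the decoy receptor, was far above the floor on all arrays, at 10.31 in ko and 10.73 in wt CD8-equivalent DCs, and at 10.46 in ko and 11.30 in wt CD4-equivalent DCs. Both ko readings lay below both wt readings. The ko minus wt differences were -0.42 in CD8-equivalent and -0.84 in CD4-equivalent DCs, both under 2-fold. The common genotype difference of -0.63 ± 0.15 (SE) had the lowest adjusted p of the members in limma's test, 0.16, which did not pass. Under a trended and robust prior its limma adjusted p was 0.045. That prior called 307 genes for genotype in place of 17.

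Il1rap, the accessory chain shared by the IL-1 and IL-33 receptors, read 6.39 in ko and 6.51 in wt CD8-equivalent DCs, and 6.65 in ko and 7.07 in wt CD4-equivalent DCs. It was lower in ko than in wt in both subsets, by differences of -0.13 and -0.42, and did not pass (limma adjusted p = 0.40). Its spread over the 4 arrays was under 1 log2 unit.

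Counted together, 6 of the 8 measured members could be compared between genotypes in each subset. In CD8-equivalent DCs 1 member, Il1b, was at least 2-fold lower in ko, where 1.00% of all 9972 genes compared were, and 0 were at least 2-fold higher, where 1.14% of all genes were. In CD4-equivalent DCs Il18rap and Il18 were at least 2-fold lower, where 0.952% of 9978 genes were, and 0 were higher, where 1.39% were. Il1b, Il18rap and Il18 were each below the floor in ko of the pair concerned and entered it only through the higher wt array. They could therefore only count as lower. Il18r1 entered the CD8-equivalent pair only through ko and could only lie above 0. The medians and the count below 0 that follow include these members. The median difference over the members compared was -0.27 in CD8-equivalent and -0.70 in CD4-equivalent DCs, against 0.004 and -0.08 over all genes compared. In CD4-equivalent DCs all 6 members lay below 0, as did 63.8% of all genes. For a genotype effect common to both subsets, limma called 0 of 7 members tested, against 0.166% of all genes (17 of 10239). At an unadjusted p under 0.05 there were 2 members, Il1r2 and Il1b, and 1599 genes in all.

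**Figure D3:**
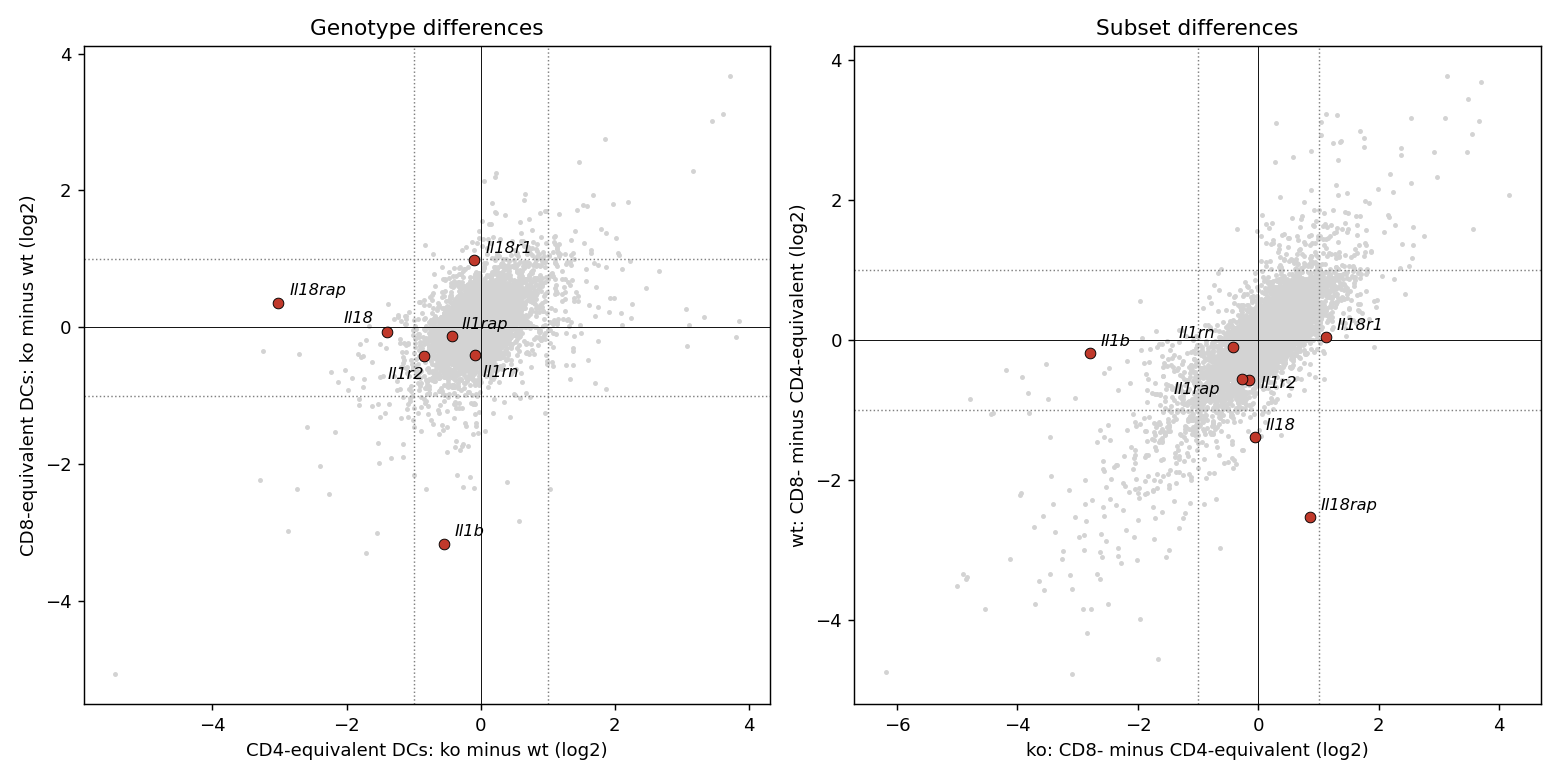
Log2 differences of all 10239 genes at or above the floor (grey) with the 7 family members among them in red; the left plot sets ko minus wt in CD8-equivalent DCs against the same in CD4-equivalent DCs, and the right plot sets the subset difference in wt against that in ko. Dotted lines mark 2-fold; Il18rap (-3.02 in CD4-equivalent DCs) and Il1b (-3.16 in CD8-equivalent DCs) lie far out along different axes.

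The subsets were compared within each genotype, CD8-equivalent minus CD4-equivalent. In ko, Il1b was 6.96-fold lower in CD8-equivalent DCs (-2.80), while in wt it differed by -0.19. Il18r1 was 2.18-fold higher in the CD8-equivalent subset of ko (1.13) and was below the floor in both subsets of wt. In wt, Il18rap was 5.74-fold lower (-2.52) and Il18 2.61-fold lower (-1.39) in CD8-equivalent DCs. In ko, Il18rap differed by 0.85 and Il18 was below the floor on both arrays. The Il18 and Il18rap differences of the genotype and the subset comparison both rest on the same wt CD4-equivalent array, as those of Il1b and Il18r1 rest on the ko CD8-equivalent array.

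In ko, 1 of 6 members compared was at least 2-fold higher in CD8-equivalent DCs and 1 at least 2-fold lower, where 3.39% and 3.90% of 10118 genes were. The higher one, Il18r1, reached the floor only on the ko CD8-equivalent array and could only count as higher. The lower one, Il1b, was below the floor on the ko CD8-equivalent array and could only count as lower. In wt, 0 of 6 were at least 2-fold higher, where 2.10% of 9998 genes were, and 2 were at least 2-fold lower, where 3.14% were. Of these, Il18 was below the floor in CD8-equivalent DCs and could only count as lower, while Il18rap reached the floor on both arrays. The members' medians were -0.21 in ko and -0.57 in wt, against 0.11 and 0.04 over all genes. For a subset effect common to both genotypes limma called 0 of 7 members, against 14.3% of all genes. Il1rap came nearest (-0.41 ± 0.13 (SE), adjusted p = 0.10) and was the only member with an unadjusted p under 0.05, as 3409 genes had.

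The neighbours of the clustered genes were read in RefSeq order. On chromosome 1 the order is Il1r2, Il1r1, Il1rl2, Il1rl1, Il18r1 and Il18rap. Map4k4, a kinase gene before Il1r2, read 9.68 in ko and 9.63 in wt CD8-equivalent DCs, and 9.61 in ko and 9.69 in wt CD4-equivalent DCs. Il1rl2, the IL-36 receptor gene inside the cluster, and Slc9a4, a sodium-proton exchanger gene after Il18rap, were below the floor on all arrays. On chromosome 2 the antisense transcript Il1bos, which overlaps Il1b, read 4.68 to 4.79 over the 4 arrays, below the floor. Beside Il18 on chromosome 9, Bco2 and Tex12 were both below the floor. Ckap2l beside Il1a and Psd4 beside Il1rn were, like Map4k4, above the floor on all 4 arrays, and the remaining neighbours read here were below it on all 4.

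No other measured ligand or receptor of the family reached the floor. Of 13 listed symbols 9 had a probe set, among them Il33, the IL-36 ligand genes under their older symbols Il1f6, Il1f8 and Il1f9, and Il1rl2. All 9 lay below the floor on all 4 arrays, between 4.20 and 5.33.

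The signalling genes downstream of the receptors were expressed throughout, and all 17 measured were at or above the floor on every array. Between genotypes, 1 was at least 2-fold higher in ko in each subset and 0 lower. Over all genes the shares were 1.14% higher and 1.00% lower in CD8-equivalent DCs, and 1.39% and 0.952% in CD4-equivalent DCs. The higher gene in both was Peli2, a ubiquitin ligase of the IRAK pathway. It read 6.92 in ko and 5.82 in wt CD8-equivalent DCs, and 7.13 in ko and 5.99 in wt CD4-equivalent DCs. Its ko arrays both lay above its wt arrays, with differences of 1.10 and 1.15, but the common genotype effect just missed limma's threshold (1.12 ± 0.12 (SE), adjusted p = 0.053). It passed with arrays centred on their medians (limma adjusted p = 0.018) and under the trended and robust prior of limma (0.018). Myd88, the adaptor of all these receptors, differed by -0.38 in CD8-equivalent and -0.15 in CD4-equivalent DCs. The median of the list was -0.04 and -0.11, close to that of all genes. For genotype limma called 0 of 17, where 0.166% of all genes tested were called. At an unadjusted p under 0.05 limma had 1 of them, and 1599 of 10239 genes.

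Between the subsets, limma called 1 of 17 signalling genes, where 14.3% of all genes tested were called. Irak3, an IRAK family member that restrains the pathway, was lower in CD8-equivalent DCs by -2.07 in ko and -2.81 in wt (limma, mean -2.44 ± 0.20 (SE), adjusted p = 0.0069). Irak2, a kinase that sustains it, differed by -1.07 in ko and -0.45 in wt (adjusted p = 0.054). Il18bp, the soluble inhibitor of IL-18, was under 2-fold in all comparisons, at 0.39 in CD8-equivalent and -0.12 in CD4-equivalent DCs for ko minus wt.

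Among genes of cytokine release and processing, limma called 6 of 16 tested for subset, all lower in CD8-equivalent DCs, where 14.3% of all genes tested were called. For genotype it called 0, where 0.166% of all genes tested were called, with 8 at an unadjusted p under 0.05, as 1599 of 10239 genes had. In CD8-equivalent DCs 1 of 13 compared was at least 2-fold higher in ko and 0 lower, against 1.14% and 1.00% of all genes. In CD4-equivalent DCs 1 of 16 was higher and 1 lower by that margin, against 1.39% and 0.952% of all genes. Casp1, the protease that cleaves the precursors, read 8.52 in ko and 8.92 in wt CD8-equivalent DCs, and 9.88 in ko and 9.94 in wt CD4-equivalent DCs. Its subset difference was -1.18 ± 0.14 (SE, limma adjusted p = 0.014), with both CD8-equivalent arrays below both CD4-equivalent arrays. Casp4, the sensor of cytosolic lipopolysaccharide, fell further in CD8-equivalent DCs (-2.53 ± 0.12 (SE), limma adjusted p = 0.0023). The other 4 called were the inflammasome sensors Nlrp3 and Mefv, the pore protein gene Gsdmd and the calpain gene Capn2. Mefv read 4.85 in ko and 4.78 in wt CD8-equivalent DCs, both under the floor. It was tested only because it reached the floor in CD4-equivalent DCs, at 5.89 in ko and 5.70 in wt. Mefv could therefore only come out lower. Casp4 was under the floor in ko CD8-equivalent DCs (5.55), so the size of its difference is blurred. The granule protease genes Ctsg and Prtn3, whose products can cleave IL-1 precursors, were not called. Ctsg read 7.96 in ko and 6.26 in wt CD8-equivalent DCs, and 6.76 in ko and 5.78 in wt CD4-equivalent DCs. Prtn3 read 8.41 in ko and 8.04 in wt CD8-equivalent DCs, and 7.92 in ko and 6.70 in wt CD4-equivalent DCs. Nlrp1b, an inflammasome sensor gene, was the list's lower gene in CD4-equivalent DCs, with 5.66 in ko, below the floor, and 6.78 in wt.

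Of 14 genes that IL-1 or NF-kB can induce, 9 were tested, and limma called 5 lower in CD8-equivalent DCs, where 14.3% of all genes tested were called. For genotype it called 0, where 0.166% of all genes tested were called, with 3 at an unadjusted p under 0.05, as 1599 of 10239 genes had. Those called for subset were the chemokine gene Ccl3 (-1.86 ± 0.13 (SE), limma adjusted p = 0.0047), the prostaglandin synthase gene Ptgs2 (-1.52), the NF-kB cofactor gene Nfkbiz (-1.43), Tnf (-0.99) and the feedback inhibitor gene Socs3 (-0.96). Ptgs2 read 4.72 in ko and 4.88 in wt CD8-equivalent DCs, both under the floor. It was tested only because it reached the floor in CD4-equivalent DCs, at 6.10 in ko and 6.55 in wt. Ptgs2 could therefore only come out lower, and the size of its difference is blurred. Socs3 was under the floor in ko CD8-equivalent DCs (5.58), which blurs its size too. Between genotypes the median was 0.04 in CD8-equivalent and -0.09 in CD4-equivalent DCs, and 0 genes reached 2-fold in either. Over all genes 1.14% were higher and 1.00% lower by that margin in CD8-equivalent DCs, and 1.39% and 0.952% in CD4-equivalent DCs. Il6, Cxcl1 and Ifng were below the floor on all arrays.

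**Figure D4:**
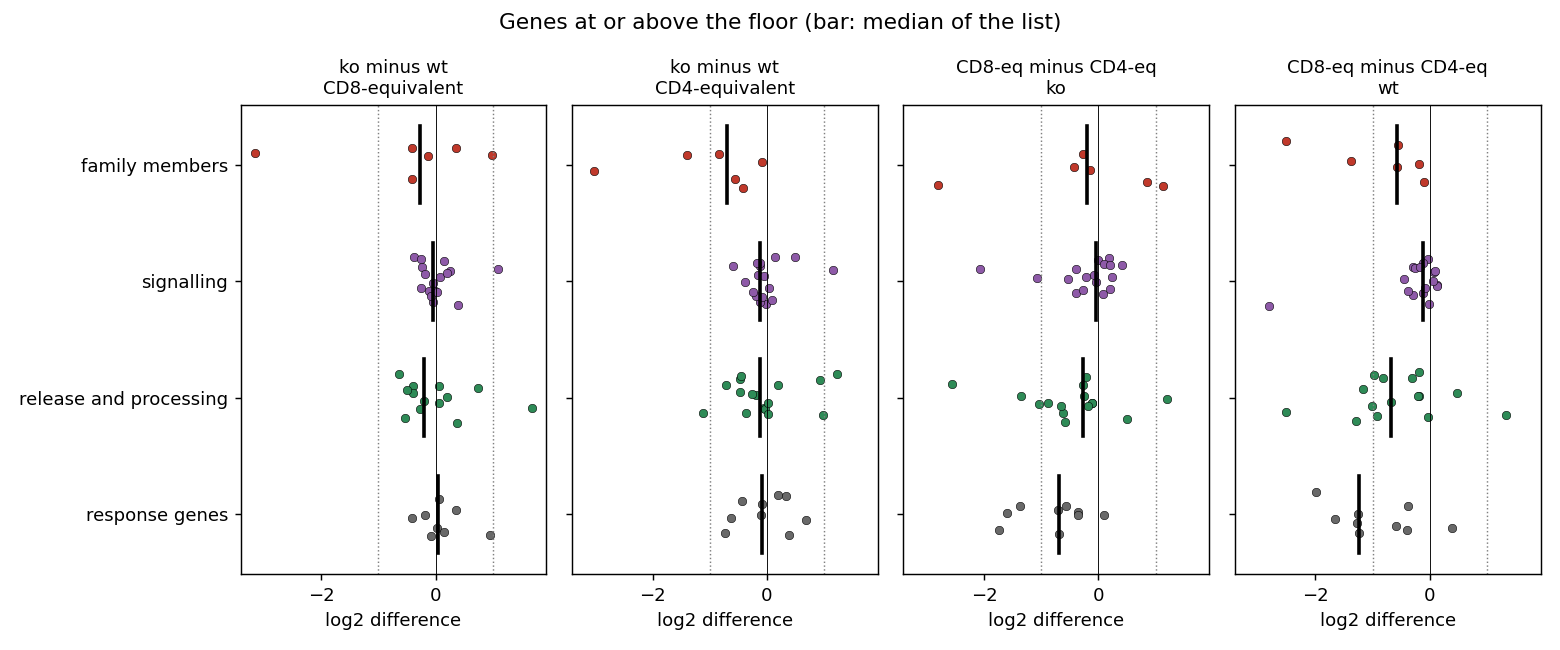
Log2 differences (horizontal axis) of family members, signalling genes, release and processing genes and response genes in each of the 4 comparisons; points are genes at or above the floor, shifted at random in height, bars are list medians and dotted lines mark 2-fold. Response genes have medians of -0.68 in ko and -1.23 in wt for CD8-equivalent minus CD4-equivalent DCs, and of 0.04 and -0.09 for ko minus wt. The medians of -0.68 and -1.23 include Ptgs2, which could only lie below 0.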

How the data were processed

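RNA from 4 sorted DC samples, 1 a group, was measured on 4 Affymetrix arrays. The deposited values are log2 summaries, 1 a probe set and array, made by the authors with RMA and Partek, per the submitters' processing notes. The log base was inferred from the range (3.52 to 14.3), while versions and centring, not given in the sources used here, are unknown. RMA compresses low differences, and the number of arrays limits the precision. No scanner values were used here. Array medians were 5.94 and 5.87 for ko and wt CD8-equivalent and 5.88 and 5.91 for ko and wt CD4-equivalent DCs.

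Of 35399 probe sets, 21789 had 1 gene symbol, 1621 several and 11989 none here in the 2016 platform annotation. The probe set with the highest mean was used per gene. Symbols were matched to RefSeq (GRCm38.p6) for gene order only. limma 3.58.1 (R 4.3.3) fitted genotype and subset additively, with 1 residual and 3.98 prior degrees of freedom, so each factor serves as the repeat of the other and its p-values rest on the disagreement among these 4 arrays, possibly technical. The test is two-sided with a threshold of 0.05. It was tested on simulated data. The simulation gave all genes the same spread and no genotype difference that varied with subset, so it does not cover genes such as Il18rap. Sequences come from the RefSeq tables of GRCm38.p6.

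The members and gene lists were chosen with earlier results of these data known. All members are named, and up to 4 genes a list with the largest difference, plus Il18bp for its role. Genes below the floor, marker genes and called genes beyond these were named after their values were seen. Alternatives were cyclic loess, median centring, the mean of probe sets, other floors and limma's trended and robust prior.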

Additional observations from a re-analysis of the deposited data

Results flagged for a closer look

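Il18rap differed in direction between the subsets, and the difference was not tested. Its ko minus wt value was 0.36 in CD8-equivalent DCs and -3.02 in CD4-equivalent DCs. Its CD8-equivalent minus CD4-equivalent value was accordingly 0.85 in ko and -2.52 in wt.

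Irak3 and Irak2 also differed in direction, by small amounts that were not tested. The ko minus wt value of Irak3 was 0.15 in CD8-equivalent and -0.59 in CD4-equivalent DCs, and that of Irak2 was -0.12 and 0.49.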

How the results depend on the processing

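For the 8 measured members, 197 of 198 values recomputed under the alternatives kept their side of the 2-fold line or of limma's threshold. The exception was Il1r2, whose genotype effect passed with the trended and robust prior (adjusted p = 0.045, where the other settings did not call it), so that 1 member was called in place of 0. Part of this agreement was fixed in advance. Each member has 1 probe set, so the mean of probe sets left its differences as they were. A change of floor moves no difference between a pair of arrays, and a gene below the raised floor was left out, not counted as changed. With the floor raised by 1 log2 unit, Il18r1 no longer reached it. As a result 0 members were at least 2-fold higher in the CD8-equivalent subset of ko. The number of genes called for genotype was 17 as deposited, 240 with arrays centred on their medians, 3 without a floor, 120 with the higher floor and 307 with the trended and robust prior. For subset it was 1467 as deposited and 946 without a floor. For genotype, 1 signalling gene (Peli2) was called with median centring, the higher floor or the trended prior, and 2 release and processing genes and 1 response gene with median centring or the trended prior, against 0 as deposited. For subset, 2 signalling genes were called with median centring or the higher floor and 3 with the trended prior, against 1. Of 549 values of named genes from these lists, 523 kept their side, 20 newly passed and 6 no longer did, and 0 that had passed turned direction. Ctsg and Prtn3 were called for subset with median centring, the higher floor or the trended prior, and Ctsg also with cyclic loess. Tnf, Nlrp3 and Socs3 were not called for subset without a floor, and Socs3 also not with the mean of its probe sets. The share of higher genes among those at 2-fold moved from 53.3% as deposited to 40.9% with median centring for ko minus wt in CD8-equivalent DCs, and was 34.6% with cyclic loess against 46.5% as deposited for the subsets of ko. Apart from the floor and the prior, which change the genes tested or the variance, the cause was not tested. No paired analysis was possible because each group has 1 array and the labels give no replicate numbers. Levels below the floor limit Il1a and most readings of Il18 and Il18r1.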
